A study of Mus musculus with 34 samples.

Results

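The Rxra cKO-only regions were stretches of open chromatin that were called in every treated culture of hair follicle stem cells (HFSCs) without Rxra and in almost no treated culture with Rxra. ATAC-seq, in which a transposase cuts and tags open DNA, had been run on 34 mouse HFSC libraries, and peaks had been called in each by itself. Merging overlapping peaks (1 bp or more) on chromosomes 1 to 19 of 13 culture lists gave 159202 regions. A peak was present in all 5 Rxra cKO lists, and in no more than 1 of the 8 Rxra WT lists, at 1080 regions, or 0.678%. The regions were selected on these 13 lists, so their presence and strength there are described and not tested. They were compared with the 43480 regions in all 5 Rxra cKO lists and 2 or more Rxra WT lists (shared regions), with the 400 regions in all 8 Rxra WT lists and at most 1 Rxra cKO list (Rxra WT-only regions), and with all merged regions.

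The cultured cells were primary HFSCs of the second telogen of mice that carried Sox9-creER+ and R26-YFP fl/fl and were either Rxra fl/fl (Rxra cKO) or Rxra+/+ (Rxra WT). Cre was activated in the dish in both genotypes and YFP+ cells were sorted, so that deletion was limited to cells in which Sox9-creER was active. The cells had been grown on fibroblast feeder layers. How many independent lines stood behind each genotype is not stated, and the effects of a line and of the genotype cannot be told apart. The Rxra cKO lists were cultures with apoptotic corpses (n = 3) and with a mix of retinoic acid (RA), arachidonic acid (AA) and lysophosphatidylcholine (LPC) in place of corpses (n = 2). The Rxra WT lists were cultures with corpses (n = 4) and with BEL-treated corpses (n = 4), bromoenol lactone being a blocker of the phospholipase that releases LPC from dying cells. Treatment was therefore not matched between the genotypes. Lists that did not choose the regions were Rxra cKO in medium (n = 2), Rxra WT in medium (n = 2), Rxra WT with AA, LPC and RA (n = 2), and 15 lists of HFSCs taken from skin. Those 15 held late catagen (CatVII) cells of Rxra cKO mice (Rxra fl/fl, n = 3) and Rxra WT mice (Rxra+/+, n = 4), both with Sox9-creER+ and R26-YFP fl/+ by the sorting scheme of the study, CatVII wild-type cells (n = 6) and full anagen (AnaVI) wild-type cells (n = 2).

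RXRα is a nuclear receptor that binds DNA as a dimer with partners such as the retinoic acid, liver X and peroxisome proliferator-activated receptors, at direct repeats of a short element. In HFSCs it has been tied to the uptake of dying neighbours in catagen, the phase in which the lower follicle regresses by apoptosis. Accessible regions far from genes are mostly enhancers, where factors such as AP-1 (induced by stress and wounding), TEAD (the DNA-binding partner of YAP and TAZ) and RUNX (of which RUNX1 acts in HFSC activation) bind.

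The lists differed in length, and the regions have to be read with that in mind. On chromosomes 1 to 19 the Rxra cKO lists held 118245, 75852 and 126373 peaks with corpses and 65014 and 56812 with AA, LPC and RA. The Rxra WT lists held 70212, 73152, 97848 and 111692 peaks with corpses and 68819, 62278, 76985 and 91016 with BEL-treated corpses. Reads were not counted in these files, so the depth is unknown and the number of peaks stands in for it. The tags Phago and NonPhago in the stored peak names, which the labels do not explain, also ran unevenly, with NonPhago in 4 of 5 Rxra cKO lists and 4 of 8 Rxra WT lists. Promoters of HFSC identity genes had a peak for 16 to 17 of 19 genes in the Rxra cKO lists and 14 to 17 in the Rxra WT lists, and those of basal keratinocyte genes for 14 of 14 and 13 to 14. Of 16 fibroblast markers 3 to 4 had a promoter peak in Rxra cKO and 3 to 5 in Rxra WT, of 12 immune markers 2 to 3 and 2 to 4, of 9 melanocyte markers 1 to 2 and 1 to 2, and of 8 endothelial markers 3 to 5 and 1 to 5. By gene window, from 50 kb upstream to 5 kb downstream, the Rxra cKO-only regions numbered 0 at fibroblast, immune and melanocyte markers and 1 at endothelial markers (0.081, 0.071, 0.0364 and 0.0616% of all merged regions). By the nearest start they numbered 3 at fibroblast markers (0.278%, against 0.114% of all), 1 at immune, 0 at melanocyte and 5 at endothelial markers (0.463%, against 0.0766%). The part of other cell types in the regions was not tested.

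The 8 windows here give examples of the sequence of the regions. Each runs over 200 bp centred on the strongest summit of the region, 5′ to 3′ on the plus strand of GRCm39, and capitals mark the words of AP-1 (TGANTCA), TEAD (CATTCC or its complement) and RUNX (TGTGGT or its complement). The first 6 are the best-ranked regions with no Rxra WT peak that were not called repeated, for which such a word was required. That call, defined below, uses the median over the window, so a shorter repeat can remain. The Tox window, for example, ends in a run of GA. The other windows, at Ccl2 and Runx1, were picked by name from the inflammatory and HFSC lists described later. All 8 windows hold a word, whereas 72.9% of the 1080 regions hold at least 1 of these words.
Asap2, chr12:20865622-20865821: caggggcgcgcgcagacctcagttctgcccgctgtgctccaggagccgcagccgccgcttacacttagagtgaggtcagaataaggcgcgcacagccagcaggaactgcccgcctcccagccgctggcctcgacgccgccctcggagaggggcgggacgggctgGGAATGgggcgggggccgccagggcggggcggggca
Lrig3, chr10:126134167-126134366: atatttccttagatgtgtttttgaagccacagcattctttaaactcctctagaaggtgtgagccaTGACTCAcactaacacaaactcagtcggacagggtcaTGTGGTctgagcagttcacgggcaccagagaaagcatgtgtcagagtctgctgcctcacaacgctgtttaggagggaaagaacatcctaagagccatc
Lrig3, chr10:126057634-126057833: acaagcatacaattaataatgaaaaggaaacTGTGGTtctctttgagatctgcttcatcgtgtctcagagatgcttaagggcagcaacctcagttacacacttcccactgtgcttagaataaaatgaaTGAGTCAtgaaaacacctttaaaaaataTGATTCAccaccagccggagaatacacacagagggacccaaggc
Ccser1, chr6:62435843-62436042: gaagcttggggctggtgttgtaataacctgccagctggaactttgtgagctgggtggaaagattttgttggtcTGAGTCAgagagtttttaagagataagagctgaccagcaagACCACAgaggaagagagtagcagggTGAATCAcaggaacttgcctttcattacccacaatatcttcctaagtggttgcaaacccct
Cdh9, chr15:16933283-16933482: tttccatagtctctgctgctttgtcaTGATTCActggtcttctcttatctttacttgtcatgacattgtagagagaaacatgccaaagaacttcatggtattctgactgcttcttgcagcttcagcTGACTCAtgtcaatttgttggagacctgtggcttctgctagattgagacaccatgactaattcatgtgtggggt
Tox, chr4:7199210-7199409: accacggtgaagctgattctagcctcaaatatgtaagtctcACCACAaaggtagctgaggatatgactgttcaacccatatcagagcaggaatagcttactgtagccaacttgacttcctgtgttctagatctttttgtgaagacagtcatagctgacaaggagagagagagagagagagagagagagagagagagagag
Ccl2, chr11:81923810-81924009: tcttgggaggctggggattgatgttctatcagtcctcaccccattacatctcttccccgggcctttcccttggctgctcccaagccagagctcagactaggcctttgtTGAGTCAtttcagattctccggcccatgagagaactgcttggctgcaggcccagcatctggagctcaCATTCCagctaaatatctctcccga
Runx1, chr16:92487497-92487696: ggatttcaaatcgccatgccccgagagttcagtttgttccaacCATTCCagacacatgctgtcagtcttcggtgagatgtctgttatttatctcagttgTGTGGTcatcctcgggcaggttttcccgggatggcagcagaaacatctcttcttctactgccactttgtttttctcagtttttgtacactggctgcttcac

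The window near Asap2 stood out by its GC content of 73.5%, against a median of 44.5% over the 1080 regions. Both windows near Lrig3 held AP-1 and RUNX words, 1 of each in the first and 2 AP-1 words with 1 RUNX word in the second. The Ccser1 window held 2 AP-1 words and 1 RUNX word, and the Cdh9 window 2 AP-1 words. The Asap2 window held 1 TEAD word and the Tox window 1 RUNX word. The Ccl2 window paired 1 AP-1 word with 1 TEAD word, and the Runx1 window 1 TEAD word with 1 RUNX word.

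Regions were ranked by the mean, over the 5 Rxra cKO lists, of the percentile of the peak's −log10 p within its list. The region near Asap2, which encodes a GTPase-activating protein of membrane traffic, ranked first (chromosome 12, 20865219 to 20866223, in a lncRNA gene, 296027 bp from the start of Asap2). Its fold enrichment at the summit was 18, 18 and 19.6 in Rxra cKO with corpses and 15.1 and 16.2 with AA, LPC and RA, a mean of 17.4 ± 1.76 (SD, n = 5), with no peak in any of the 8 Rxra WT lists. In skin it was called in 3 of 3 lists of CatVII Rxra cKO mice and 1 of 4 of CatVII Rxra WT mice. It was also called in 1 of the short lists of cells in medium, so its presence was not limited to treated cultures.

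A pair of regions lay about 76 kb apart beyond Lrig3, a transmembrane modulator of growth factor receptors. The stronger (chromosome 10, 126133933 to 126134392) had fold enrichments of 21.2, 17.8 and 23.9 with corpses and 14.2 and 13.7 with AA, LPC and RA, and the other (126057525 to 126058175) 19, 16, 20.4, 13 and 11.4. Neither was called in any Rxra WT culture list or in any list from skin. A weaker region between them (126086481 to 126086855, mean fold 9.46 ± 3.17, SD, n = 5) had a peak in 2 of 3 CatVII Rxra cKO and none of 4 CatVII Rxra WT lists. Another between them (126120379 to 126120691, mean fold 5.73 ± 1.73) had no peak in any list from skin. The next regions in rank among those with no Rxra WT peak, none of which was called in skin, lay near Ccser1 (mean fold 15.8 ± 3.25, SD, n = 5), near the cadherin gene Cdh9 (16.3 ± 3.79), near Tox, a regulator of T cell development (15.5 ± 3.61), and in an intron of Bmper, which encodes a secreted BMP-binding protein (14.3 ± 3.74). Others lay near Acss3, a mitochondrial acyl-CoA synthetase gene (15.2 ± 4.09), Kctd16, a subunit gene of GABA-B receptors (14.2 ± 3.0), and Dmac1, an assembly factor gene of respiratory complex I (14.2 ± 3.02), and in introns of the adhesion phosphatase gene Ptprm (14.2 ± 4.67) and of Nek7, a kinase gene of mitosis and the inflammasome (13.6 ± 2.70). Near means only the nearest start of a protein-coding gene. That start lay 502270 bp away for Ccser1, 155196 bp for Cdh9, 207666 bp for Tox and 401710 bp for Kctd16. For the Lrig3 pair it lay 332233 and 255700 bp away, for Acss3 48410 bp and for Dmac1 9775 bp. A link of the regions to these genes was not tested. Ranking without regard to Rxra WT peaks would place others among them, such as the region near Ptprc, a leukocyte phosphatase gene (mean percentile 84.5), which was picked after its values were seen. It had 1 Rxra WT peak in culture and a peak in all 15 lists from skin. Both values with AA, LPC and RA lay below all 3 with corpses in each of the 12 regions with no Rxra WT peak but those near Ccser1, Tox and Nek7. This order was not particular to them. The median folds of the shared regions were 8.89 and 8.58 with AA, LPC and RA and 13, 9.66 and 13 with corpses.

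**Figure D1:**
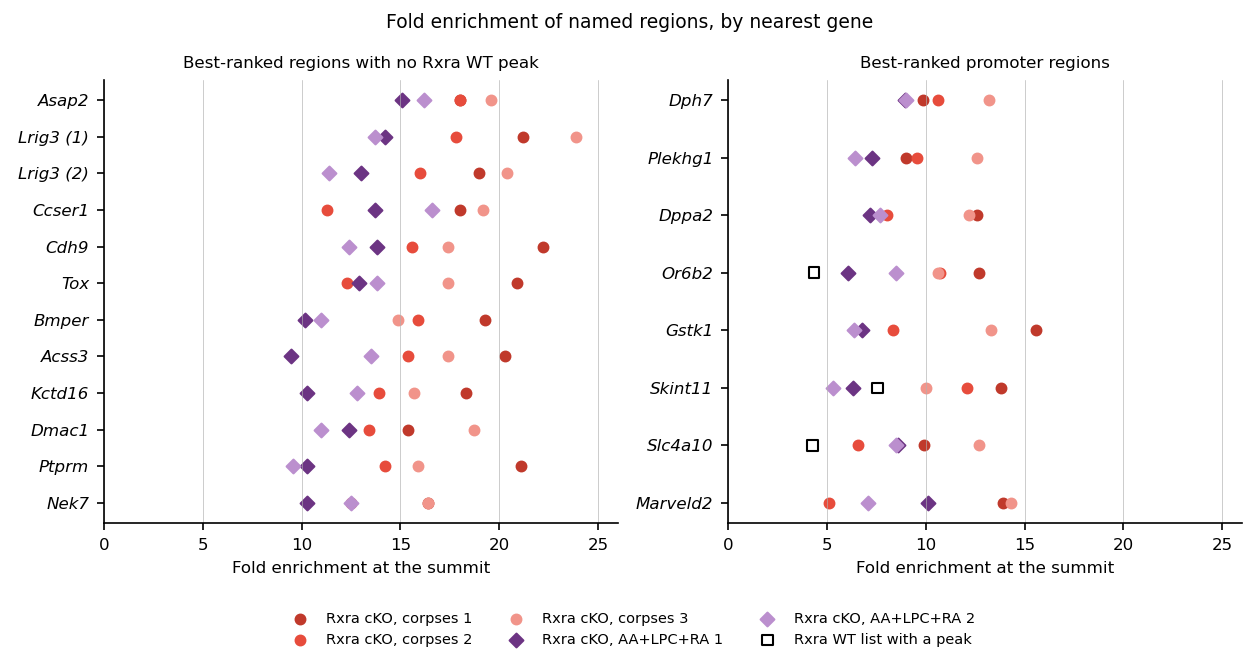
Fold enrichment at the summit (x axis) of the 12 best-ranked regions with no Rxra WT peak (left) and the 8 best-ranked promoter regions (right), by nearest gene. Circles are Rxra cKO with corpses 1 to 3, diamonds Rxra cKO with AA, LPC and RA 1 and 2, and open squares the single Rxra WT list with a peak where there was one. The region near Asap2 runs from 15.1 to 19.6.

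Most of the 1080 regions were weaker than these. The median fold enrichment of their peaks was 9.98, 6.59 and 8.80 in Rxra cKO with corpses and 5.75 and 5.68 with AA, LPC and RA, against 13, 9.66, 13, 8.89 and 8.58 for the shared regions in the same lists. Their median percentile was 60.2, 39.0 and 57.8 with corpses and 33.0 and 28.6 with AA, LPC and RA. Their median width was 352 bp, against 752 bp for shared regions and 528 bp for Rxra WT-only regions. Of the 1080, 648 had no Rxra WT peak and 432 had 1. That single peak was in Rxra WT corpses 4 for 206 regions and corpses 3 for 121, in BEL-treated corpses 4 for 56 and 3 for 21, and in the other 4 lists for 4 to 14 each. The lists with most of these peaks were the longest of the Rxra WT lists, and their peaks at the regions were weak, with median percentiles of 4.42 to 14.8 in these 4 lists. They are also the Rxra WT lists whose stored names carry the tag Phago, so length and tag cannot be told apart. Beyond the limit of the rule, 513 regions in all 5 Rxra cKO lists had 2 Rxra WT peaks and 579 had 3, with median mean percentiles of 45.3 and 48.2 in Rxra cKO, against 43.4 and 42.5 for the members with 0 and 1. Another 1454 regions missed the rule by 1 Rxra cKO list.

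Among the treated cultures that did not choose the regions, the lists of Rxra WT with AA, LPC and RA were unequal, with 87225 peaks in replicate 1 and 12705 in replicate 3. Replicate 1 had a peak in 207 of the 1080 regions (19.2%), against 97.7% of shared regions, and replicate 3 in none, against 23.3% of shared regions. The share in replicate 1 was 55.5% of the regions with 2 or 3 Rxra WT peaks and 50.4% of all merged regions. Shared regions have 2 or more Rxra WT peaks by definition and members at most 1. A gap in another Rxra WT culture list was therefore partly fixed by the choice of the sets. Replicate 1 was treated as the Rxra cKO lists with AA, LPC and RA were, and its list was longer than both of those (65014 and 56812 peaks). Its stored name carries the tag Phago, however, and the names of both those Rxra cKO lists NonPhago. The part of the tag in the share was not tested. With replicates 1 and 3 counted in, 580 of the 1080 regions (53.7%) had no peak in any Rxra WT culture list. In medium alone the lists held only 3976 to 5542 peaks. The regions had a peak in 2 and 1 cases in Rxra cKO and 0 and 2 in Rxra WT, 1 of these cases being the region near Asap2. At this length the absence of a peak in medium shows little.

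**Figure D2:**
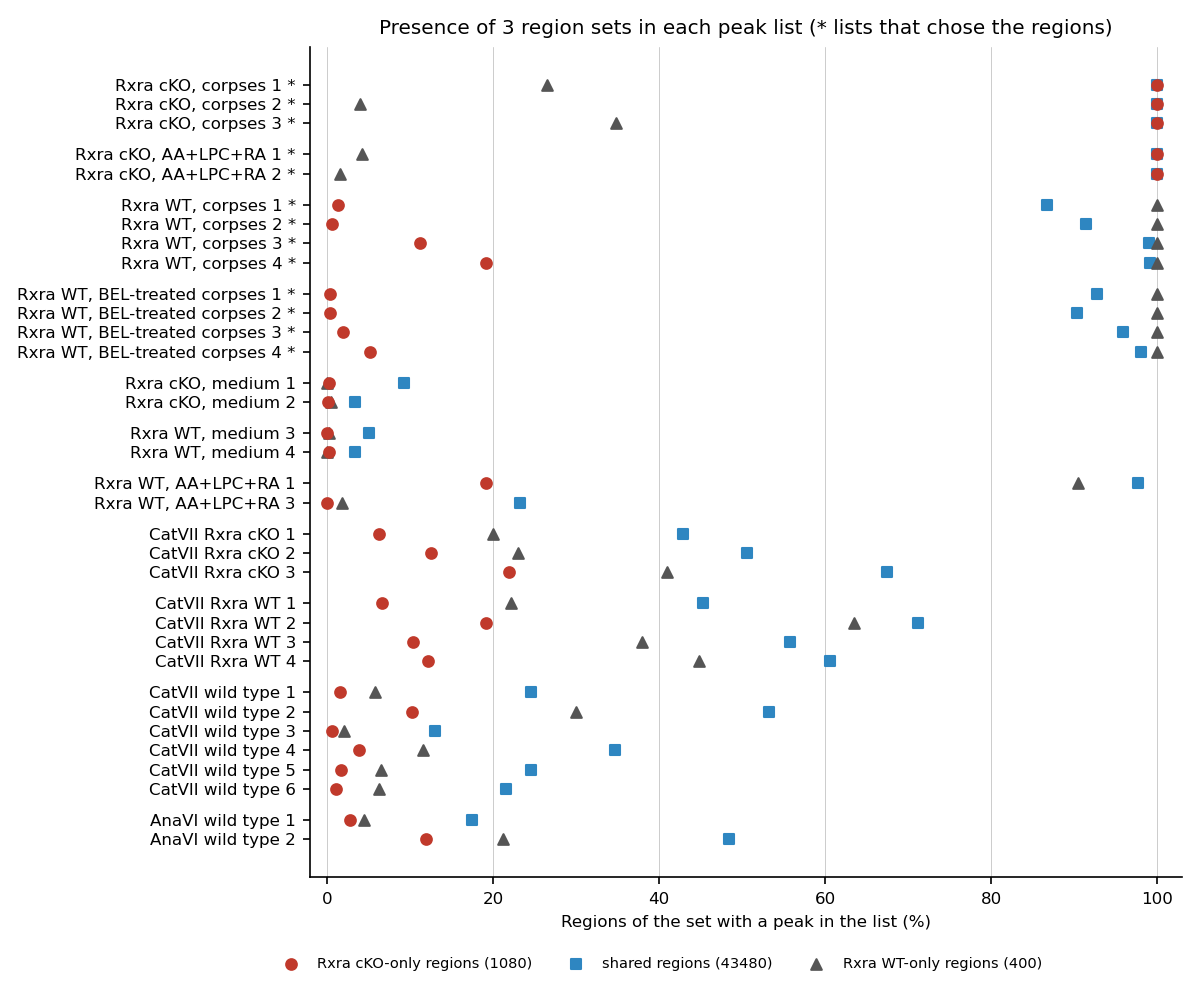
Percentage of Rxra cKO-only regions (circles, 1080), shared regions (squares, 43480) and Rxra WT-only regions (triangles, 400) with a peak in each of the 34 lists; asterisks mark the 13 lists that chose the sets. In Rxra WT with AA, LPC and RA replicate 1 the circle lies at 19.2% and the square at 97.7%, and in CatVII the circles of Rxra cKO (6.20 to 21.9%) and Rxra WT (6.57 to 19.1%) overlap.

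In skin the regions were mostly not called in either genotype. A peak was present in 6.20, 12.5 and 21.9% of the 1080 regions in CatVII Rxra cKO replicates 1 to 3 and in 6.57, 19.1, 10.3 and 12.2% in CatVII Rxra WT replicates 1 to 4, and the groups overlapped. Within each genotype the order followed the number of peaks in the list (40458, 54732 and 107565 in Rxra cKO, and 42992, 98902, 57515 and 74640 in Rxra WT). With the strongest 40458 peaks of each list the shares were 6.20, 10.6 and 10.4% in Rxra cKO and 6.11, 8.06, 7.78 and 7.59% in Rxra WT. The stored names of Rxra WT replicates 2 to 4 carry another tag (P37) than those of Rxra WT replicate 1 and of all Rxra cKO lists (P42), and the part of this tag in the shares was not tested. Rxra cKO replicate 3, with the highest share, is the only list of both genotypes at CatVII stored as Phago. The part of that tag was not tested either. CatVII wild-type lists, of 8046 to 50452 peaks, had a peak in 0.556 to 10.2% and AnaVI lists in 2.78 and 11.9%. In all, 288 of the 1080 regions (26.7%) had a peak in at least 1 of the 15 lists from skin, against 76.5% of shared, 70.2% of Rxra WT-only and 48.7% of all merged regions. The share was 28.8% in the regions with 2 or 3 Rxra WT culture peaks, so that it was not particular to the members. Outside promoters the share was 23.7 to 27.9% in every class of peak strength for the members 61.3 to 73.4% for shared regions of the same classes, and 23.8 to 32.5% for those with 2 or 3 Rxra WT peaks.

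No region had a peak in all 3 CatVII Rxra cKO lists and in none of the 4 CatVII Rxra WT lists, among the 284 with a peak in any of these 7 lists. Over all merged regions with such a peak, 115 of 76744 did (0.15%). The opposite pattern, all 4 Rxra WT lists and no Rxra cKO list, also held for 0 of the 284, against 0.374% of all. Fisher's exact test per region (two-sided) cannot give a p below 0.0286 with 3 against 4 lists. Of 76744 regions 402 reached it and 0 passed the Benjamini-Hochberg adjustment, the smallest adjusted p being 1.0. Without CatVII Rxra cKO replicate 1, the shortest of these lists, 22 of 284 members (7.75%) had a peak in both remaining Rxra cKO lists and no Rxra WT list, against 2.86% of all merged regions, 1.95% of shared regions and 9.12% of the regions with 2 or 3 Rxra WT culture peaks. The stored names of both those Rxra cKO lists carry the number m2, and whether they come from separate mice is not settled by the files. At the other end, 34 of the 284 members (12%) had a peak in all 7 lists, against 23.3% of all merged and 44.9% of shared regions with a peak, among them the promoter of Gstk1 and an intron of Crim1.

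The regions lay far from gene starts. Of the 1080, 47 (4.35%) had their summit within 1 kb of the start of a protein-coding transcript, against 24.6% of shared regions, 5.75% of Rxra WT-only regions, 10.6% of all merged regions and 3.39% of the regions in all 5 Rxra cKO and 2 or 3 Rxra WT lists. Introns held 39.6%, lncRNA genes 19.2%, exons 2.69% and intergenic DNA 34.2%. The median distance to the nearest start was 63717 bp, against 14864 bp for shared, 27327 bp for Rxra WT-only and 24180 bp for all regions and 46904 bp for those with 2 or 3 Rxra WT peaks, and 56.1% were more than 50 kb away. Among regions outside promoters the members lay at medians of 58445 to 96786 bp over 5 classes of peak strength, the shared regions at 22962 to 28735 bp and the regions with 2 or 3 Rxra WT peaks at 31624 to 79191 bp. These regions just beyond the limit of the rule were thus distal too.

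**Figure D3:**
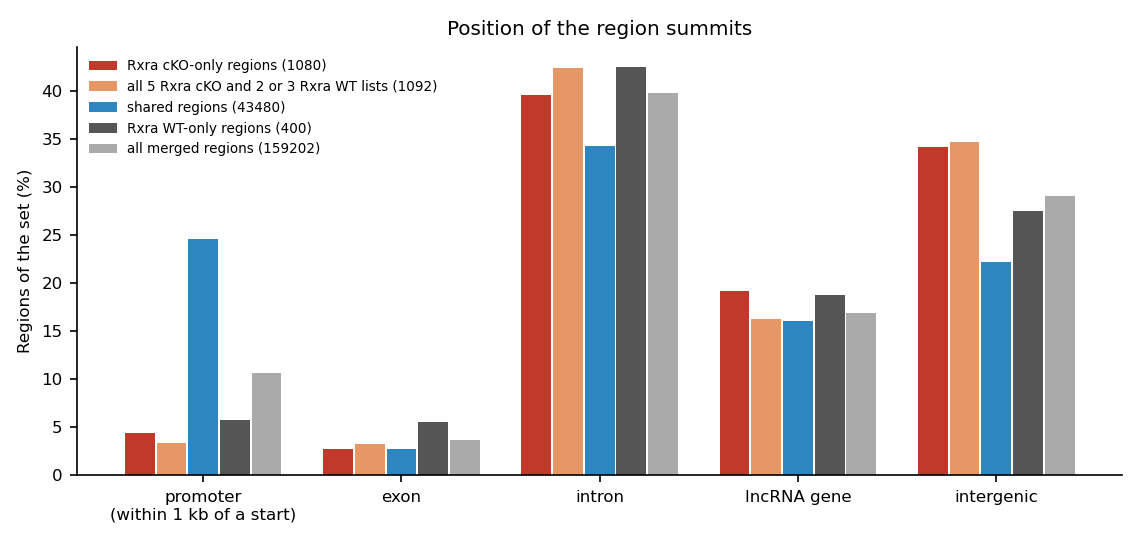
Percentage of regions (y axis) whose summit lay in a promoter, exon, intron, lncRNA gene or intergenic DNA, for the Rxra cKO-only regions and 4 other sets. Promoters held 4.35% of Rxra cKO-only regions and 24.6% of shared regions.

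The 8 best-ranked promoter regions differed in skin. At Dph7, a gene of diphthamide synthesis, the promoter region (chromosome 2, 24852307 to 24852834) had fold enrichments of 9.86, 10.6 and 13.2 in Rxra cKO with corpses and 8.97 and 9.01 with AA, LPC and RA. It had no Rxra WT culture peak, but in skin it was present in 2 of 3 lists of Rxra cKO and 3 of 4 of Rxra WT at CatVII. The promoters of Plekhg1 (mean fold 8.95 ± 2.38, SD, n = 5), of Gstk1, a glutathione transferase gene (10.1 ± 4.12), and of Marveld2, the gene of the tight junction protein tricellulin (10.1 ± 4.04), likewise had no Rxra WT culture peak. At CatVII they were open in 2, 3 and 2 of 3 lists of Rxra cKO mice and in 3, 4 and 4 of 4 of Rxra WT mice. At the promoters of Dppa2, a gene of pluripotent cells (9.54 ± 2.62), and of the olfactory receptor gene Or6b2 (9.72 ± 2.52) no list from skin had a peak. At Skint11, of a family expressed in epidermis, 1 list from skin had a peak, CatVII Rxra WT 2, and at the bicarbonate transporter gene Slc4a10 1, CatVII Rxra cKO 3. Or6b2, Skint11 and Slc4a10 each had a peak in 1 of the 8 Rxra WT lists of the rule, and Slc4a10 also in 1 Rxra WT list with AA, LPC and RA. Of the 47 promoter regions 27 (57.4%) had a peak in some list from skin, against 97.7% of shared promoter regions.

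Some regions came in runs. A run was a set of members with no more than 100 kb between neighbours, and these were chosen for description after their values were seen. There were 21 runs of 3 or more members, holding 82 regions, while the median distance from a region to the next was 460389 bp. The largest, of 8 regions over 356 kb on chromosome 11 (81729333 to 82086201), ran from the ion channel gene Asic2 across the chemokine genes Ccl2, Ccl11, Ccl8 and Ccl1. It held 1 shared region. Its strongest member lay near Ccl8 (82030254 to 82030865), with a mean fold of 12.6 ± 2.86 (SD, n = 5), words of AP-1, TEAD and RUNX at the summit and no peak in skin. The member 2487 bp upstream of Ccl2, which encodes a monocyte chemoattractant, had fold enrichments of 6.68, 6.70 and 5.45 with corpses and 7.05 and 4.67 with AA, LPC and RA, no Rxra WT culture peak, and at CatVII was open in 1 of 3 lists of Rxra cKO mice and 3 of 4 of Rxra WT mice. In all, 6 of the 8 had a peak in skin.

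Other runs were silent in skin or nearly so. The 6 regions upstream of Atp10a, a phospholipid flippase gene (chromosome 7, 57896112 to 58093435), had mean folds of 7.47 to 14.5 and no peak in any list from skin. The 5 in introns of Thsd7b (chromosome 1, 129487617 to 129632314) had mean folds of 5.24 to 10.4, none with a peak in skin. The 5 at Bmper (chromosome 9, 23211741 to 23292196) had 5.47 to 14.3, and 1 had a peak in skin, in CatVII Rxra cKO 2 and AnaVI 2. The 6 at Stk32b and Evc2, genes of a kinase and of a ciliary Hedgehog protein (chromosome 5, 37594552 to 37857847), had 6.38 to 13.3, and 1 had a peak in skin. At the vomeronasal receptor genes Vmn2r5 to Vmn2r7 (chromosome 3), 3 of the 4 regions were repeated sequence, meaning that the median 25-base word of the window occurs elsewhere in the genome. Over all 1080 regions 73 (6.76%) were repeated, against 2.99% of shared regions and 6.41% of the regions with 2 or 3 Rxra WT peaks.

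Counted by gene window, from 50 kb upstream to 5 kb downstream, 805 genes held at least 1 region, 83 at least 2 and 16 at least 3. Thsd7b, which encodes a thrombospondin-domain protein, held 7 of 57 regions in its window, Negr1, an adhesion protein gene of neurons, 6 of 37, Bmper 5 of 25, Stk32b 5 of 24 and Robo1, the Slit receptor gene, 5 of 41. Pcdh15, a protocadherin gene of sensory hair cells, held 4 of 48, Anks1b, a gene of the synapse, 4 of 69 and the lipoprotein receptor gene Lrp1b 3 of 39. Lrp1b was tied at 3 with other genes. The named genes are long, with windows of 317 kb (Bmper) to 2113 kb (Lrp1b). None of them held a Rxra WT-only region, but such regions were only 400 of the 159202 merged regions. Their absence here was not read as a difference. The strongest member at the named genes, in an intron of Robo1 (chromosome 16, 72300549 to 72301283), had fold enrichments of 20.2, 13 and 19.2 with corpses and 17.4 and 15.3 with AA, LPC and RA, against 2.93 in the only Rxra WT list with a peak, BEL-treated corpses 4.

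The 24 gene lists were read by gene window. Of 442 list entries found in the annotation, the windows together took 27 of the 1080 regions (2.50%), against 3.87% of all merged regions. By the gene with the nearest start the shares were 4.81 and 4.70%, so the lower share of members did not hold. Among the lists of phagocytosis, no member lay in the windows of 19 genes of receptors for apoptotic cells, of 11 genes of phosphatidylserine bridging proteins or of 26 genes of phagosome maturation and lysosome, which took 0.161, 0.0559 and 0.21% of all merged regions. Counts this low were not read as a difference. The phagocytic cup list had 4 regions at 3 of 22 genes (0.370%, against 0.281% of all). Of these, 2 were in introns of Gulp1, an engulfment adaptor gene, with mean folds of 6.57 ± 1.43 and 8.03 ± 4.19 (SD, n = 5). The other 2 were in an intron of the Rac exchange factor gene Dock2 (5.97 ± 1.44) and upstream of the cholesterol transporter gene Abca1 (5.11 ± 1.63).

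The retinoid list had 5 regions at 6 of 27 genes, 0.463% of the members against 0.244% of all merged regions. An intronic region of Rara, a retinoic acid receptor gene and RXR partner (chromosome 11, 98838720 to 98839088), had fold enrichments of 13.3, 5.86 and 9.51 with corpses and 8.05 and 6.66 with AA, LPC and RA, and of 4.66 in Rxra WT corpses 4. At the promoter of Rxrg, which encodes another RXR (chromosome 1, 167425941 to 167426285), the values were 10.5, 6.59, 5.81, 5.46 and 3.9, and 4.66 in Rxra WT corpses 4, with no peak in any list from skin. Regions also lay near Cyp26a1 and Cyp26c1, genes of enzymes that break down retinoic acid (mean fold 8.03 ± 3.59), in Dhrs3, a retinaldehyde reductase gene (6.45 ± 1.78), and near Aldh1a3, a gene of retinoic acid synthesis (5.47 ± 0.963, SD, n = 5). All of these but the last had a peak in 1 of the 8 Rxra WT lists of the rule. The regions near Aldh1a3, near Cyp26c1 and in Dhrs3 had a peak in 1 Rxra WT list with AA, LPC and RA. The list of other RXR partners and lipid handling had none in 22 genes, against 0.196% of all merged regions.

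Inflammatory signalling genes had 5 regions at 4 of 23 genes (0.463%, against 0.163% of all), 2 of them at Ccl2 and the others at the chemokine gene Cxcl12 (mean fold 8.37 ± 3.06), at Nfkb1, a subunit gene of NF-κB (6.80 ± 1.94), and at Irf1, an interferon response factor gene (6.19 ± 2.26, SD, n = 5). HFSC identity genes had 4 regions at 4 of 19 genes (0.370%, against 0.219%), in introns of Runx1 (4.56 ± 0.263), Nfib (5.43 ± 1.98) and Tcf7l2 (5.34 ± 1.27) and near Lhx2 (4.85 ± 0.910), with mean percentiles of only 23.0 to 27.0. By the nearest start the HFSC share turned to 0.370% of members, against 0.455% of all. The list of YAP and TEAD targets had 1, in an intron of Crim1 (7.53 ± 2.45), which was present in all 7 CatVII lists of both Rxra genotypes. Notch and Hedgehog genes had regions at Hey1 and Boc, growth factor genes at Fgf2 and Fgfr2, WNT genes at Lrp5, basal keratinocyte genes at the E-cadherin gene Cdh1, epidermal differentiation genes at the promoter of Casp14 and endothelial genes at the promoter of Cdh5, 1 each. The lists of hair lineage, AP-1 and wound response, BMP and TGF-beta, mesenchymal transition, cell cycle, fibroblast, melanocyte, immune and neural genes had none by window, with 0.0364 to 0.193% of all merged regions. By the nearest start each of them but the melanocyte list had 1 to 3. These counts were not tested.

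The sequence at the summits differed between the sets. The TEAD word was present in 343 of 1080 windows of 200 bp (31.8%), against 18.1% of shared, 14.0% of Rxra WT-only and 17.4% of all regions. The RUNX word was present in 29.6%, against 20.9, 18 and 22% of these sets, and the GATA word (AGATAA) in 11.9%, against 7.08, 11.8 and 8.66%. The AP-1 word was present in 39.2%, against 38.5% of shared and 37.0% of Rxra WT-only regions. With promoters left out, it was present in 39.4% of members, 48.4% of shared and 38.2% of Rxra WT-only regions, and it was lower in members than in shared regions in each class of GC content (26.6 and 41.9% at 50% GC and over). By class of peak strength the gap was smaller. From the weakest to the strongest class the AP-1 word rose from 31.1 to 47.9% of members and from 34.7 to 52.5% of shared regions. At least 1 of the AP-1, TEAD and RUNX words was present in 72.9%, against 58.5, 58.0 and 57.6%, and in 73.4% of the regions with 2 or 3 Rxra WT peaks. In these neighbouring regions TEAD was at 26.9%, RUNX at 33.6% and AP-1 at 42.0%. No test was made, because the regions were chosen from the same lists that placed the summits.

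The TEAD share was lower in regions with a peak in more of the Rxra WT lists, except between none and 1. It was 29.8% of the regions with no Rxra WT peak, 34.7% with 1, 27.1% with 2, 26.8% with 3, 24.9% with 4, 23.0% with 5, 21.4% with 6, 19.2% with 7 and 17.2% with all 8, each with a peak in all 5 Rxra cKO lists. By peak strength, outside promoters, it was 30.6 to 37.7% of the members over 5 classes of mean percentile and 17.9 to 22.2% of the shared regions in the same classes. In the strongest class the regions with 2 or 3 Rxra WT peaks were at 32.4% and the members at 31.4%. By base composition, in windows of 40 to under 45% GC outside promoters the word was present in 33.5% of members, 23.6% of shared and 9.30% of Rxra WT-only regions, and in windows of 50% GC and over in 31.5, 19.2 and 16.8%. The RUNX word was less separate. Outside promoters it was present in 24.8% of members and 26.5% of shared regions at 45 to under 50% GC, and it was highest in regions with 2 Rxra WT peaks, at 35.5%.

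**Figure D4:**
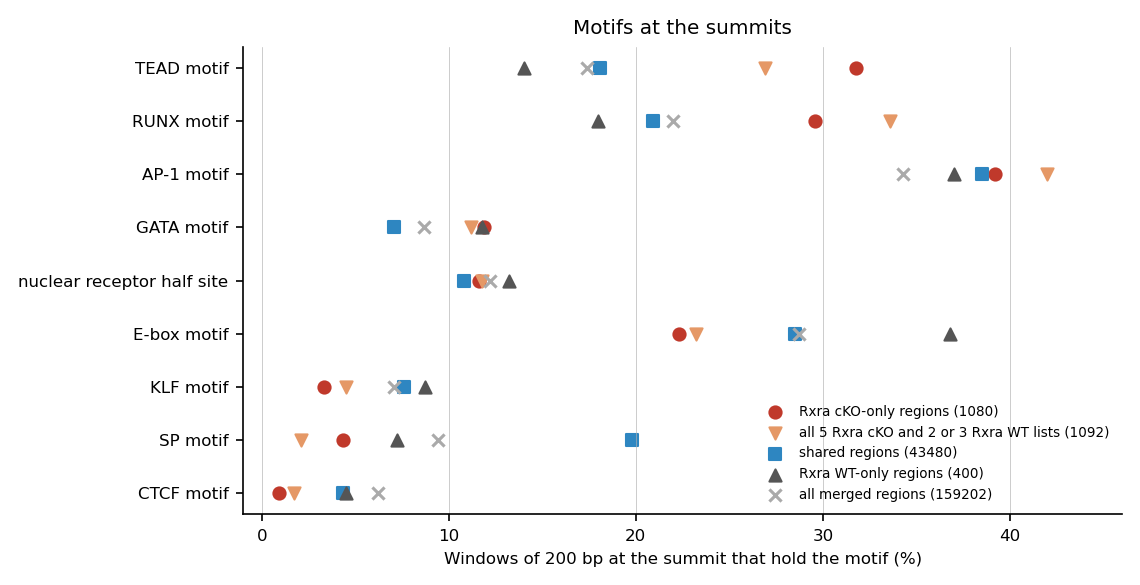
Percentage of 200 bp windows at the summits (x axis) that held the word of each motif, for 5 sets of regions. The circle of the Rxra cKO-only regions lies at 31.8% for TEAD, against 18.1% for shared regions (square), and at 0.926% for CTCF, against 4.35%.

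Words of CTCF, KLF, SP and the E-box were rarer in the regions than in shared, Rxra WT-only and all merged regions. The core word of CTCF, an insulator protein (CCANNAGNNGGC), was present in 0.926%, against 4.35% of shared, 4.50% of Rxra WT-only and 6.20% of all regions. The KLF word (GGGTGTG) was present in 3.33%, against 7.59, 8.75 and 7.09%, the SP word of promoters (GGGCGG) in 4.35%, against 19.8, 7.25 and 9.43%, and the E-box (CAGCTG or CACCTG) in 22.3%, against 28.5, 36.8 and 28.7%. In the regions with 2 or 3 Rxra WT peaks the CTCF, KLF, SP and E-box words were at 1.74, 4.49, 2.11 and 23.2%. Low shares of these words were thus not particular to the members. Outside promoters the SP word was present in 3.58% of members, 6.53% of shared, 6.37% of Rxra WT-only and 4.78% of all regions. The single element AGGTCA was present in 11.6% of the regions, against 10.8% of shared, 13.2% of Rxra WT-only and 12.2% of all regions. The direct repeat of AGNTCA with 1 base between was present in 1 of the 1080, with 2 or 5 bases in none, against 0.104 to 0.139% of all regions for the 3 spacings. These counts are too small to read a direction, and in windows of 300 bp the spacing of 1 base was at 0.278%, against 0.209% of all. All words were sought on both strands, AGGTCA can be part of a direct repeat, and a word is a match of letters and not a bound site.

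The chromosomes did not hold equal shares. Of the regions in all 5 Rxra cKO lists, the Rxra cKO-only regions made up 3.71% on chromosome 16, 3.50% on chromosome 3, 3.16% on chromosome 1 and 3.10% on chromosome 10, against 1.45% on chromosome 7, 1.65% on chromosome 19 and 1.69% on chromosome 8. The strength of the peaks common to all 13 lists also differed by chromosome. The median percentile in Rxra cKO minus that in Rxra WT, over 34462 regions, was −0.31 in all and ranged from −4.02 on chromosome 2 to 3.92 on chromosome 4. It was 2.20, 3.6, 1.32 and 1.61 on chromosomes 16, 3, 1 and 10 and −1.86 on chromosome 7. Other chromosomes went the other way, with 1.0 on chromosome 19 (1.65%), −0.84 on chromosome 6 (3.03%) and −1.22 on chromosome 18 (2.83%). Chromosome 4, with the highest difference, held 2.48%. The part of these differences in strength in the choice of the regions was not tested. Chromosome 2, which carries Rxra (27566452 to 27653330), held 1 member among 221 merged regions within 1 Mb of the gene and 21 among 3043 within 20 Mb. The promoter of Rxra was open in all 5 lists of Rxra cKO and all 8 of Rxra WT that chose the regions, which does not check the deletion. On chromosome 2, which held 8.62% of all merged regions, lay 76 of the 400 Rxra WT-only regions. Of these 76, 7 lay within 20 Mb of Rxra. The reason for their number on this chromosome was not tested.

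**Figure D5:**
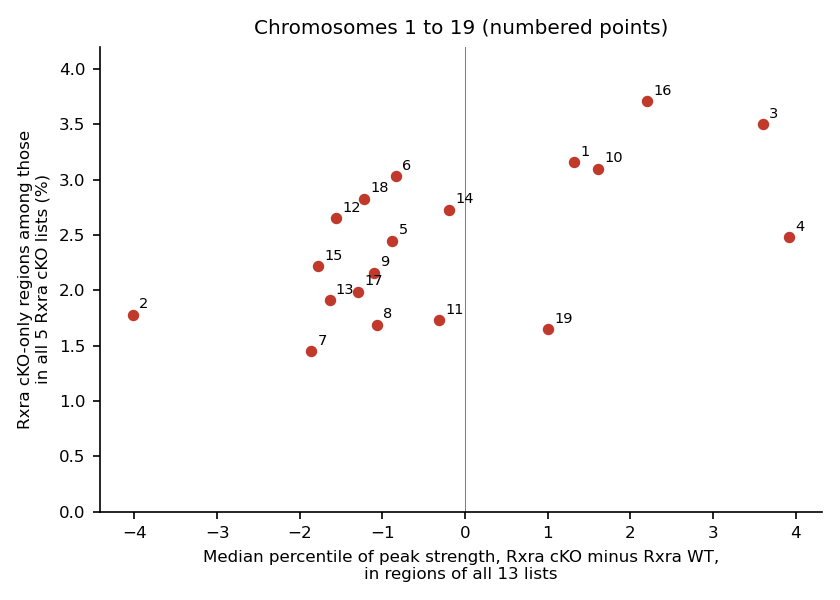
For each of chromosomes 1 to 19 (numbered), the percentage of Rxra cKO-only regions among regions in all 5 Rxra cKO lists (y axis) against the median difference in percentile of peak strength, Rxra cKO minus Rxra WT, in regions of all 13 lists (x axis). Chromosomes 16 and 3 lie at 3.71 and 3.50% with differences of 2.20 and 3.6, chromosome 7 at 1.45% with −1.86, and chromosome 19 at 1.65% with 1.0.

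The count of regions depended on the lists. With the strongest 56812 peaks of each list, the length of the shortest, 1449 regions met the rule, and 439 of the 1080 (40.6%) overlapped these. The mirrored rule then gave 866 Rxra WT-only regions, against 400 with all peaks. In the lists whose peak names hold NonPhago, an alternative chosen after seeing the data, 2081 regions were called in all 4 of Rxra cKO and none of 4 of Rxra WT, and they took in 1052 of the 1080 (97.4%). Every member has a peak in all of these Rxra cKO lists by the rule. This overlap was therefore largely fixed in advance and is not a check of the regions. The TEAD word was present in 30.0% of the regions from lists of equal length and in 29.5% of those from the NonPhago lists, and promoters were 3.17 and 3.70%.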

How the data were processed

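Peak lists of 34 ATAC-seq libraries were used as deposited. Per the methods and the submitters' processing notes, the authors aligned reads to mm39 (GRCm39) with BWA 0.7.18, sorted them with SAMtools, and ran the MACS3 3.0.0 caller on the paired fragments of every replicate separately, with no control library, at q below 0.05. Each deposited list gives a ratio, the fold enrichment at the summit, and the −log10 p and −log10 q there, and the score column was not used. The lists hold no read counts, so depth is unknown, and each list holds only peaks past the caller's threshold.

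Peaks on chromosomes 1 to 19 that shared 1 bp or more were merged over the 13 lists. Positions were taken at the summit of the strongest peak, with GENCODE vM39 for genes. Promoters lay within 1 kb of the start of a protein-coding transcript. Motifs were sought as words in 200 bp at the summit, 25 motifs in all, and 25-base words were counted over the whole genome. Per-region Fisher's exact tests of the 7 CatVII lists with Rxra genotype were adjusted over all regions with a peak. Named regions were the 12 best ranked with no Rxra WT peak and not called repeated, and the 8 best-ranked promoters. Also named were those of the 8 genes with most members and those in windows of the gene lists. Of the 8 genes, Lrp1b was tied at 3 members with other genes that were left out of this choice. Members with a peak in all 3 CatVII Rxra cKO and none of the 4 Rxra WT lists were also to be named, and there were none. The members and the gene lists were chosen with earlier results of these data known. Of 445 list entries 442 were found by symbol. The steps were tested on simulated lists. Python 3.11.15, pandas 2.3.3 and SciPy 1.17.1 were used. The study calls the culture replicates biological replicates, and whether they are separate lines is not stated. Alternatives were lists of equal length, stricter thresholds, other windows and leaving out each list.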

Additional observations from a re-analysis of the deposited data

Results flagged for a closer look

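CatVII wild type replicate 2 had a peak in 10.2% of the Rxra cKO-only regions, far from the other 5 CatVII wild-type lists (0.556 to 3.89%). Its gap to the next list was 0.654 of the whole range of the group. It is also the longest list of that group, with 50452 peaks on chromosomes 1 to 19, and the part of length in the gap was not tested. Chance gives such a gap in about 1 in 20 groups, and 2 groups were examined.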

How the results depend on the processing

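Counts of regions that met the rule moved with the lists used and with how presence and absence were defined. They were 648 with no Rxra WT peak allowed, 630 where peaks had to cover at least 50% of the region, 3422 in the corpse lists alone (all 3 Rxra cKO, none of 4 Rxra WT), and, in alternatives chosen after seeing the data, 2081 in the NonPhago lists and 3434 without the 4 Rxra WT lists tagged Phago. Leaving out each list in turn gave 1095 to 1725, the highest without Rxra cKO with AA, LPC and RA replicate 2, the shortest list. The call in skin was met by 0 to 22 members when 1 of the 7 lists was left out, by 2 with in vivo lists of equal length, and by 0 among the members under lists of equal length. Promoters were 6.85% within 2 kb and 3.17% for members under lists of equal length. The share with a peak in Rxra WT with AA, LPC and RA replicate 1 was 14.6% at −log10 q of 3 or more. By nearest start, 52 members (4.81%, against 4.70% of all merged regions) fell to the genes of the lists. The TEAD word was present in 37.9% of windows of 300 bp, and repeats were 2.31% at 10 or more other places. The RUNX word was present in 35.6% of windows of 300 bp and in 34.6% of members under lists of equal length, and the AP-1 word in 45.3% under lists of equal length. The other alternatives moved these shares by less than their counting intervals and the counts by less than 1.5 times. No paired analysis was possible because the regions come from no test of paired samples, and replicate numbers mark no shared source in the labels. The length of the lists limits what absence of a peak shows.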
